A study of Homo sapiens with 4 samples.

Results

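The STAT genes encode transcription factors that carry signals from cytokine receptors to the nucleus. They were described here in KM-H2, a Hodgkin lymphoma cell line, by every probe set that the array annotation pairs with a single STAT symbol. Of 6 genes looked for (STAT2, STAT3, STAT4, STAT5A, STAT5B and STAT6), 5 had such a probe set, and STAT2 was matched to none and has no value here. The 5 genes carried 13 of the 54675 probe sets of the array and were 5 of the 19775 genes compared. Arrays came from KM-H2 cells with PTPN1 knocked down by siRNA (n = 2) and from KM-H2 cells given a non-silencing control (n = 2), all grown under standard conditions with no further agent named in the labels. The series calls the arrays of a group technical replicates of 1 line, so every SD, SE and p-value below measures the spread between arrays, not between cultures. The knockdown reduces a tyrosine phosphatase that acts on Janus kinases (JAKs), and the comparison asks how transcript levels differ when it is reduced.

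A cytokine brings together receptor chains whose JAKs phosphorylate a tyrosine near the end of a STAT protein. Phosphorylated STAT proteins pair through their SH2 domains, enter the nucleus and bind DNA, commonly at palindromes of the form TTC, a short spacer and GAA. SOCS proteins, which the pathway itself induces, and tyrosine phosphatases such as PTPN1 limit the signal. In Hodgkin lymphoma the pathway is often active through altered JAK and SOCS1 genes, and STAT6 phosphorylation is a known feature of the tumour cells. The arrays measured transcript only, so the phosphorylation of the STAT proteins is outside these data.

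The promoters of STAT3 and STAT4 are shown because these genes had the highest differences of the family. In RefSeq windows of 250 bases before the annotated transcript start (GRCh38.p14, each on the minus strand, 5′ to 3′), capitals mark a match to the spacings TTCNNGAA, TTCNNNGAA or TTCNNNNGAA, which read the same on both strands. STAT4 has 2 windows because RefSeq gives 2 start sites.
STAT3, chr17:42388443-42388692: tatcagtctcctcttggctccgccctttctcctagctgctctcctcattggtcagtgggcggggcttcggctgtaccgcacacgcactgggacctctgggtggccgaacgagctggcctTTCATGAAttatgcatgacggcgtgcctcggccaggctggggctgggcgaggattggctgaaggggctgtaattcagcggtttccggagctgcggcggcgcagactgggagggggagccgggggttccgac
STAT4, chr2:191150995-191151244: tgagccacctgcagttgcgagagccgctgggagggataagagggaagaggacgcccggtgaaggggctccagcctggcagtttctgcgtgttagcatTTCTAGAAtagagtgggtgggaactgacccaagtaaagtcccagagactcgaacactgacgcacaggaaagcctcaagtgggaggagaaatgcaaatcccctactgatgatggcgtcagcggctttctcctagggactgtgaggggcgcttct
STAT4, chr2:191151597-191151846: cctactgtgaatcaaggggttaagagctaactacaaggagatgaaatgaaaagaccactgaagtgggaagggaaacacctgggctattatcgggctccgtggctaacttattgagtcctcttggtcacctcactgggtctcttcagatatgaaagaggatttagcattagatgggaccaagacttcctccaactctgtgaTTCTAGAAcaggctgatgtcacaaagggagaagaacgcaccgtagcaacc
The match in the STAT3 window is TTCATGAA and begins at position -131 relative to the start site. Both STAT4 windows hold TTCTAGAA, at position -153 in the first and -50 in the second. Of the 8 windows of the 5 measured genes, 4 held a match of some spacing, the remaining one being TTCCTCTGAA in a STAT5A window. Among all 35116 windows of the same length, 17.1% held at least 1 of the 3 spacings, with 6.62% holding TTCNNGAA, 6.57% TTCNNNGAA and 5.38% TTCNNNNGAA. A match is a run of letters, and binding was not measured here.

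PTPN1 transcript was lower in both knockdown arrays. Its brightest probe set, 202716_at, read 7.0 and 7.36 in the knockdown arrays, against 8.16 and 8.40 in the non-silencing arrays, which leaves 0.468-fold of the signal (log2 difference -1.10, SE 0.18, limma unadjusted p = 0.0017, adjusted p = 0.769). Its 3 other probe sets were dim and differed by 0.01, -0.03 and -0.07. Of the 11 Hodgkin cell markers all lay at or above the median of all array values (5.11) in the non-silencing arrays, among them TNFRSF8, which encodes CD30. T cell, myeloid, fibroblast and epithelial lists had 4 of 7, 3 of 6, 2 of 6 and 3 of 6 measured markers at or above that median. It is taken over all probe sets, while genes are read by their brightest one. STAT4, at 5.71 on knockdown array 2, stood at only the 46.2 percentile of genes there, so most genes exceed that median. These counts, the 11 Hodgkin cell markers included, therefore name no cell type as present or absent. Both the T cell and the epithelial list were mixed. CD3D, a T cell receptor subunit, read 10.4 and 9.76 in the knockdown arrays, against 10.2 and 9.89 in the non-silencing arrays. CD3E, CD8A and CD28 lay below 5.11, with non-silencing means of 4.83, 4.23 and 4.51. The epithelial marker EPCAM lay between 3.47 and 3.52 on all 4 arrays, while KRT8, KRT18 and KRT5 had non-silencing means of 6.74, 5.53 and 5.28. In RNA from bulk cells, fewer cells of a type and less RNA per cell cannot be told apart. The beta-actin control was read at the 3′ and at the 5′ end of its transcript. Its log2 signal excess at the 3′ end was 1.33 and 0.969 in knockdown arrays 1 and 2, against 1.31 and 0.972 in non-silencing arrays 1 and 2. The beta-actin excess thus moved with the array number and not with the group. For the GAPDH control the excess was 0.293 and 0.258 in knockdown arrays 1 and 2, against 0.319 and 0.212 in non-silencing arrays 1 and 2. GAPDH had the same order with much narrower gaps. Arrays with the same number were also more alike across the 19775 genes (Pearson's r of 0.994 and 0.995) than the knockdown arrays (0.989) or the non-silencing arrays (0.991) were with each other. For this reason each STAT gene is also given within array number 1 and within array number 2.

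STAT3, STAT5A, STAT5B and STAT6 stood in the upper part of the expression range of non-silencing KM-H2 cells, and STAT4 in the lower part. By its brightest probe set, STAT6, the factor of interleukin-4 and interleukin-13 signalling, stood at the 91.2 and 88.4 percentile of all genes in non-silencing arrays 1 and 2, or 1750th and 2293rd from the top. STAT5A stood at the 79.4 and 76.0 percentile and STAT5B at the 76.8 and 73.3 percentile. These 2 factors act downstream of interleukin-2, growth hormone and related receptors. STAT3, which serves interleukin-6, interleukin-10 and interleukin-21 receptors, stood at the 71.0 and 72.6 percentile. STAT4, the factor of interleukin-12 signalling in T and natural killer cells, stood at the 32.5 and 18.5 percentile, and its signal lay below the median of all values on both non-silencing arrays. Probe sets differ in how well they bind, so a percentile places a gene on its array and does not rank one STAT gene against another.

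**Figure D1:**
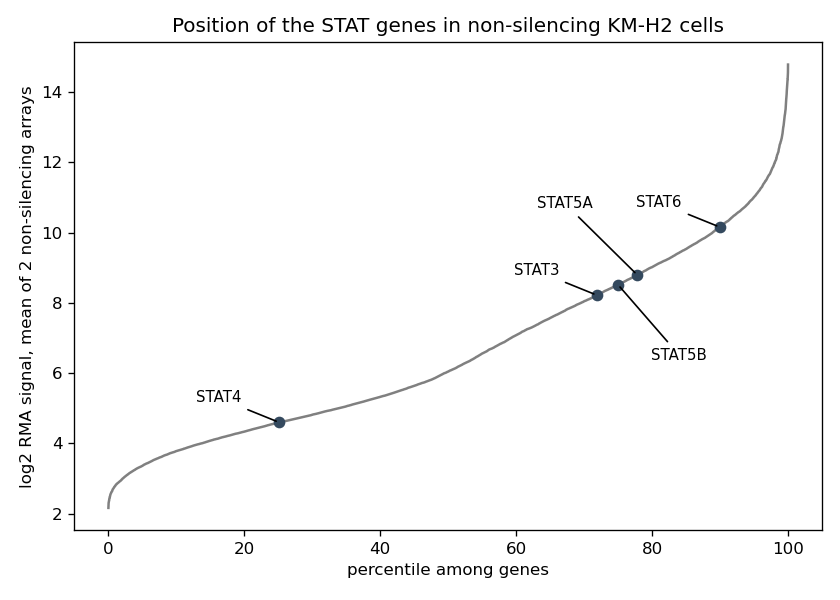
Mean log2 RMA signal of the 2 non-silencing arrays for every gene by its brightest probe set (grey line) against its percentile, with the 5 STAT genes as dots. STAT4 sits in the lower part of the curve at 4.60, and the 4 other genes lie between 8.22 and 10.2.

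In the knockdown arrays the same positions were 89.3 and 88.1 for STAT6, 84.7 and 77.3 for STAT5A, and 80.8 and 75.8 for STAT5B. STAT3 stood at the 86.0 and 74.1 percentile there, so that knockdown array 1 alone placed it far above its position in the non-silencing arrays. STAT4 stood at the 46.5 and 46.2 percentile in the knockdown arrays, above its 32.5 and 18.5 in the non-silencing arrays.

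Transcript of STAT4 and STAT3 was higher in knockdown than in non-silencing arrays, by 1.12 and 0.85 on the log2 scale, STAT5A and STAT5B were higher by 0.35 and 0.34, and STAT6 differed by -0.15. In limma 0 of the 5 genes and 0 of the 13 probe sets had an adjusted p under 0.05, and 0.0% of all genes and 0.0% of all probe sets did. At an unadjusted limma p under 0.05 there was 1 of the 5 genes, STAT4, against 2.57% of all genes, and there were 2 of the 13 probe sets, against 2.5% of all probe sets. The knockdown arrays lay above both non-silencing arrays for 2 of the 5 genes, against 12.4% of all genes, and for 5 of the 13 probe sets, against 13.4% of all probe sets. For 0 of the 13 probe sets did they lie below both, against 15.3% of all. Differences above 0 were found for 11 of the 13 probe sets, against 48.7% of all, but probe sets of 1 gene read the same transcript and do not count as separate evidence. The knockdown array was the higher one within both numbers for 4 of the 5 genes, against 27.8% of all genes. A difference of 1 or more on the log2 scale was found within number 1 for STAT3 alone (0.556% of all genes) and within number 2 for STAT4 alone (0.491% of all genes). The median difference over the 5 genes was 0.35, beside -0.01 over all genes.

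**Figure D2:**
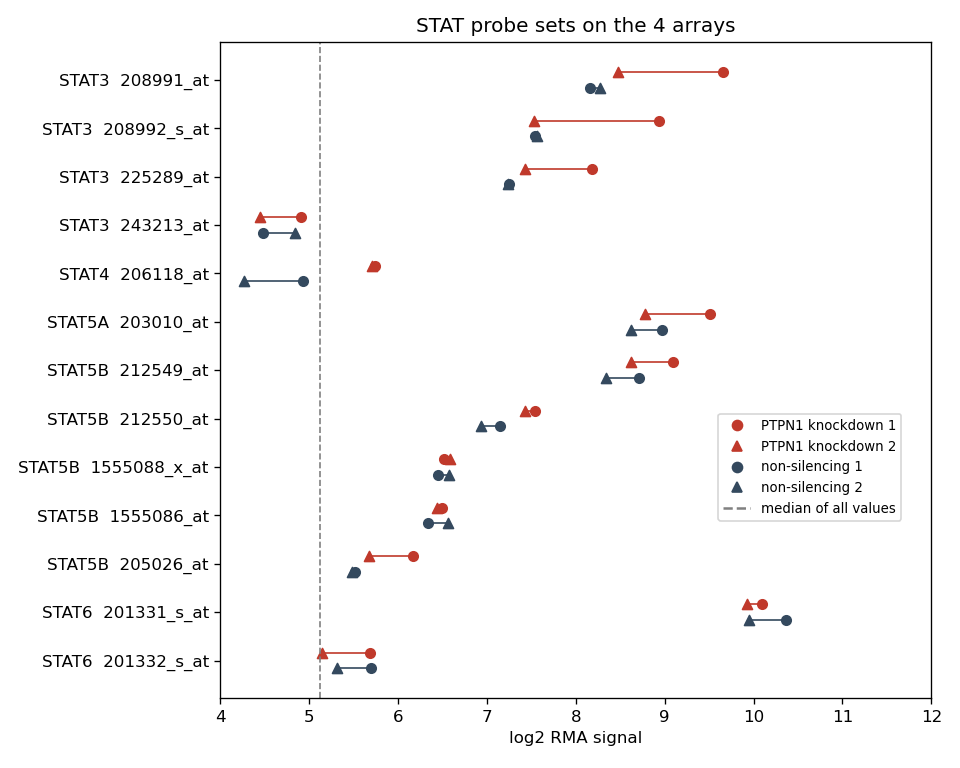
Log2 RMA signal of the 13 STAT probe sets on each array, with knockdown arrays in red above non-silencing arrays in dark blue, circles for array number 1, triangles for array number 2, and a line joining the arrays of a group. The 3 bright STAT3 probe sets are highest on knockdown array 1, by at least 0.76 over knockdown array 2, while both knockdown arrays of STAT4 lie to the right of both non-silencing arrays.

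STAT4 gave nearly equal signals in both knockdown arrays and lower, less even signals in the non-silencing arrays. Its only probe set, 206118_at, read 5.73 and 5.71 in the knockdown arrays, against 4.93 and 4.26 in the non-silencing arrays. The groups did not overlap, and the gap of 0.66 between the non-silencing arrays was far wider than the gap of 0.03 between the knockdown arrays. The means were 5.72 ± 0.02 in knockdown and 4.60 ± 0.47 in non-silencing (SD, n = 2 each), a log2 difference of 1.12 (SE 0.24, limma unadjusted p = 0.0054, adjusted p = 1.0) or 2.18-fold. Within array number 1 it was 0.81 (1.75-fold), and for number 2 it was 1.44 (2.72-fold). Only 0.43% of all genes were higher by 1 or more in knockdown, and STAT4 ranked 74th from the top of 19775 differences. Both non-silencing values lie below the array median, where RMA compresses differences, and no other probe set checks this one. Without 1 array the difference ranged from 0.79 to 1.46.

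STAT3 stood well above the other arrays on knockdown array 1. Probe set 208991_at read 9.66 and 8.47 in the knockdown arrays, against 8.16 and 8.28 in the non-silencing arrays. The signal of knockdown array 2 lay 0.20 above that of non-silencing array 2, while knockdown array 1 lay 1.5 above non-silencing array 1, a 2.83-fold difference. Probe set 208992_s_at read 8.93 and 7.53 in the knockdown arrays, against 7.54 and 7.56 in the non-silencing arrays. Probe set 225289_at read 8.18 and 7.43 in the knockdown arrays, against 7.25 and 7.24 in the non-silencing arrays. In all 3 the knockdown arrays differed from each other by between 0.76 and 1.41, whereas the non-silencing arrays differed by at most 0.12. The fourth probe set, 243213_at, lay under the median of all values on every array, at 4.91 and 4.44 in the knockdown arrays and 4.47 and 4.84 in the non-silencing arrays.

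For 208991_at the means were 9.07 ± 0.84 in knockdown and 8.22 ± 0.08 in non-silencing (SD, n = 2 each), a log2 difference of 0.85 (SE 0.39, limma unadjusted p = 0.0828, adjusted p = 1.0). Without knockdown array 1 it was 0.26, and without knockdown array 2 it was 1.44. Probe sets 208992_s_at and 225289_at differed by 0.68 and 0.56, and by -0.03 and 0.19 between the arrays numbered 2. With the mean of its 4 probe sets STAT3 differed by 0.53. The difference within number 1 exceeded that within number 2 by 1.31, the 30th widest such excess of 19775 genes. With 1 array for each group and number, this excess has no replicate and no test.

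**Figure D3:**
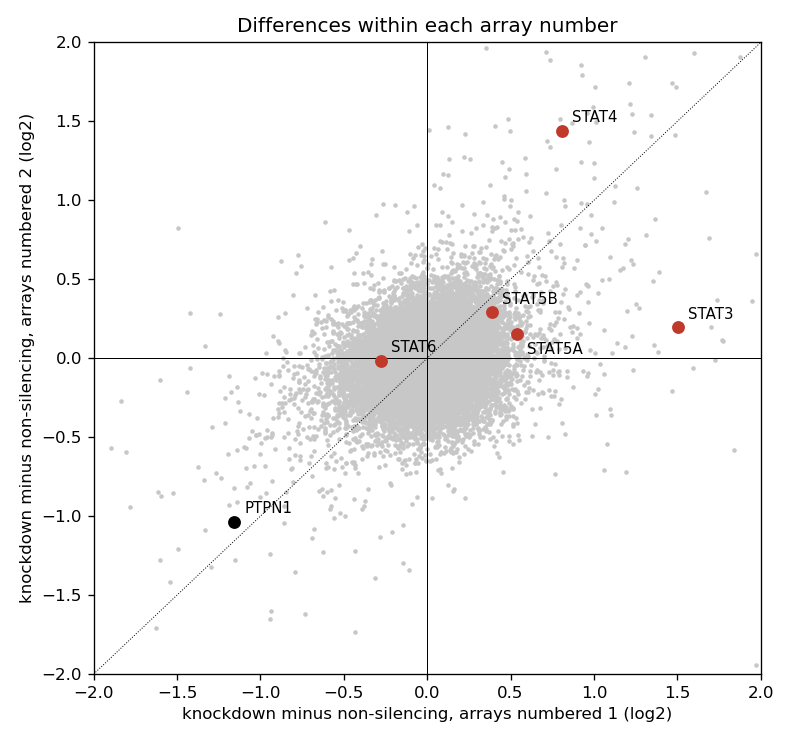
Knockdown minus non-silencing on the log2 scale between the arrays numbered 1 (horizontal) and between the arrays numbered 2 (vertical), with the STAT genes in red, PTPN1 in black, all other genes in grey and a dotted line of equal differences. STAT3 lies at 1.5 and 0.20, STAT4 at 0.81 and 1.44, and PTPN1 at -1.16 and -1.03, and 53 genes lie outside the axes.

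STAT5A and STAT5B encode closely related proteins from adjacent genes, and both were somewhat higher in the knockdown array of each number, without separation of the groups. STAT5A, by its only probe set 203010_at, read 9.51 and 8.77 in the knockdown arrays, against 8.97 and 8.62 in the non-silencing arrays. Knockdown array 2 lay below non-silencing array 1, so the groups overlapped, and the arrays numbered 1 were the higher ones in both groups. The log2 difference was 0.35 (SE 0.28, limma unadjusted p = 0.273, adjusted p = 1.0), 0.54 within array number 1 and 0.15 within number 2. It was -0.02 when knockdown array 1 was left out.

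STAT5B had 5 probe sets, which disagreed. The brightest, 212549_at, read 9.10 and 8.63 in the knockdown arrays, against 8.71 and 8.33 in the non-silencing arrays, a log2 difference of 0.34 (SE 0.22, limma unadjusted p = 0.19, adjusted p = 1.0). Its groups overlapped, with differences of 0.39 and 0.29 within array numbers 1 and 2, and without 1 array it ranged from 0.10 to 0.57. Probe set 212550_at read 7.54 and 7.43 in the knockdown arrays, against 7.15 and 6.93 in the non-silencing arrays, and these groups did not overlap (difference 0.45, SE 0.14, limma unadjusted p = 0.0251, adjusted p = 1.0). Probe set 205026_at also had its groups apart, at 6.17 and 5.68 in knockdown and 5.52 and 5.48 in non-silencing. The remaining probe sets, 1555088_x_at and 1555086_at, differed by 0.04 and 0.02, with overlapping groups. An x in a probe set name marks probes that may bind related transcripts, and whether any of these probe sets mixes STAT5A with STAT5B was not tested.

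STAT6 was the only measured gene whose difference lay below 0, and its groups overlapped. Probe set 201331_s_at read 10.1 and 9.93 in the knockdown arrays, against 10.4 and 9.94 in the non-silencing arrays. The log2 difference was -0.15 (SE 0.19, limma unadjusted p = 0.473, adjusted p = 1.0), with -0.28 within array number 1 and -0.02 within number 2. The dimmer 201332_s_at read 5.68 and 5.14 in the knockdown arrays, against 5.69 and 5.31 in the non-silencing arrays, a difference of -0.09. Both probe sets were thus higher on the arrays numbered 1 than on those numbered 2 in each group, by 0.16 to 0.54.

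The array number moved with several STAT signals. Within the knockdown arrays, number 1 exceeded number 2 by 1.19 for STAT3, 0.73 for STAT5A, 0.47 for STAT5B, 0.16 for STAT6 and 0.03 for STAT4. Within the non-silencing arrays the same gaps were -0.12 for STAT3, 0.35 for STAT5A, 0.37 for STAT5B, 0.42 for STAT6 and 0.66 for STAT4. By the brightest probe set STAT5A, STAT5B and STAT6 were therefore higher on number 1 in both groups. STAT4 was too, but by only 0.03 in the knockdown group, and STAT3 was in the knockdown group alone. The other STAT5B probe sets were mixed. Number 1 was higher in both groups for 212550_at and 205026_at. It was lower in both for 1555088_x_at (gaps of -0.07 and -0.12) and in the non-silencing group for 1555086_at (-0.22). The 3′ excess of beta-actin was higher on number 1 in both groups. So was the median log2 level of the 11 Hodgkin cell markers, at 9.30 and 8.65 in the knockdown arrays, against 8.72 and 8.41 in the non-silencing arrays. Between the groups, 10 of the 11 markers differed by more than 0, against 48.2% of all genes, and 0 passed the limma threshold. Their groups were apart for 2 higher and 1 lower in knockdown, beside 12.4% and 15.0% of all genes. The median difference of these markers was 0.27, or 0.38 within number 1 and 0.18 within number 2. That median is close to the differences of STAT5A and STAT5B (0.35 and 0.34). The part of RNA quality or of cell state in the STAT gaps was not tested. Knockdown array 1 was the highest of the 4 arrays for 4 of the 5 STAT genes, against 30.5% of all genes, and for 9 of the 13 STAT probe sets, against 29.9% of all probe sets.

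STAT5B, STAT5A and STAT3 lie next to each other on chromosome 17 among the measured genes of GRCh38.p14, and all 3 had positive differences. The nearest measured genes outside them had differences near 0: GHDC at 0.10, HCRT at -0.11, CAVIN1 at 0.09 and ATP6V0A1 at 0.07. Beside STAT4 on chromosome 2, NAB1, a corepressor, differed by -0.02, NEMP2 by 0.01, NABP1 by -0.10 and the caveola protein gene CAVIN2 by -0.73. CAVIN2 read 6.65 and 7.84 in the knockdown arrays, against 7.86 and 8.09 in the non-silencing arrays. Beside STAT6 on chromosome 12, NAB2, a corepressor whose gene overlaps the end of STAT6 in the genome, differed by 0.10, and NEMP1, LRP1 and NXPH4 by 0.07, -0.05 and 0.11.

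By distance between centred log2 values over the 4 arrays, the 5 genes most like STAT3 were LIPG, LGI1, MAK, IL2RA and HEBP2, at distances of 0.27 to 0.32. IL2RA, the alpha chain of the interleukin-2 receptor, read 5.52 and 4.63 in the knockdown arrays, against 4.33 and 4.56 in the non-silencing arrays. HEBP2 read 7.92 and 6.74 in the knockdown arrays, against 6.81 and 6.71 in the non-silencing arrays. The 5 genes most like STAT4 were SCN11A, TMTC2, EFNA1, PCP4 and PROS1, at distances of 0.26 to 0.37, with differences between 0.88 and 1.34. EFNA1, an ephrin ligand, read 6.22 and 6.09 in the knockdown arrays, against 5.22 and 4.95 in the non-silencing arrays. With 4 arrays such likeness is only a description.

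The genes around the STAT proteins had a median difference near 0. The 13 lists of receptors, kinases, inhibitors, nuclear partners and targets held 136 genes beside the STAT genes, of which 133 were measured, 74 with a difference above 0, against 48.2% of all genes. In limma 0 of the 133 passed after adjustment over all genes, and 9, PTPN1 among them, had an unadjusted p under 0.05, against 2.57% of all genes. The median difference of the 133 was 0.01, beside -0.01 over all genes. The groups were apart with knockdown higher for 17 of them, against 12.4% of all genes, and with knockdown lower for 19, against 15.0%.

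**Figure D4:**
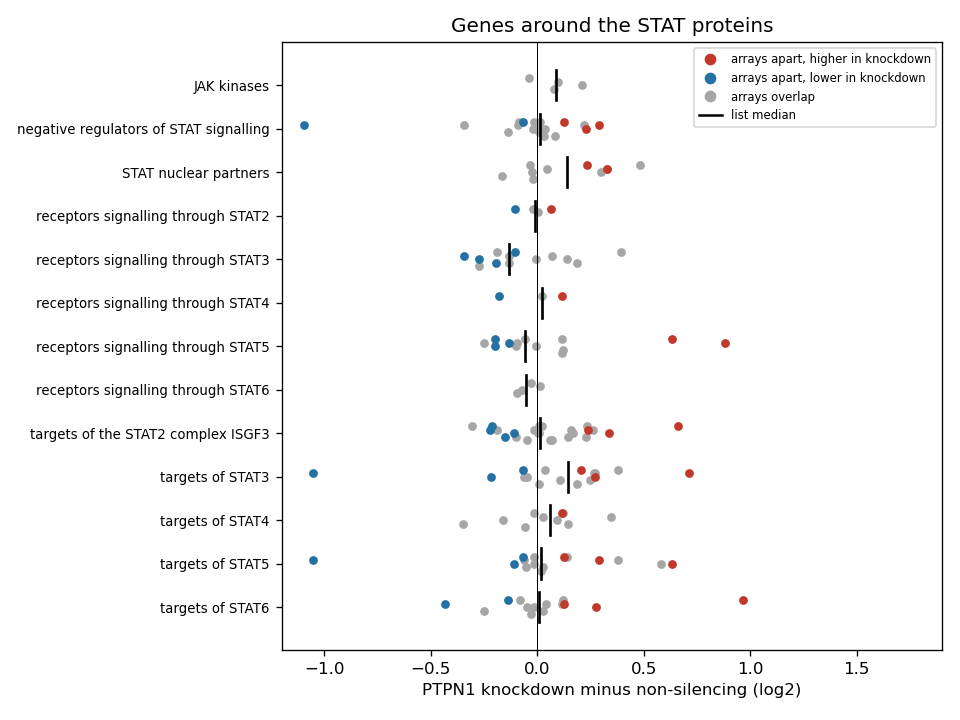
Knockdown minus non-silencing on the log2 scale for the genes of 13 lists, each dot a gene, red or blue where the arrays of the groups do not overlap (higher or lower in knockdown) and grey where they do, with a black bar at the list median. List medians lie between -0.13 for receptors that signal through STAT3 and 0.15 for STAT3 targets.

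Among the receptors, the 13 measured chains that signal through STAT3 had a median of -0.13, with 4 above 0 and 9 below. LIFR, the leukaemia inhibitory factor receptor, read 5.12 and 5.14 in the knockdown arrays, against 5.41 and 5.53 in the non-silencing arrays, and CSF3R, the receptor of granulocyte colony-stimulating factor, differed by -0.27. Both lie near or below the median of all values. IL21R and IL6ST, the shared chain of interleukin-6 receptors, had overlapping groups at -0.13 and 0.07, and IL21R was at 0.08 as the mean of its probe sets. Of 13 receptors for STAT5, GHR, the growth hormone receptor, differed by 0.88 and IL2RA by 0.63, while EPOR and IL9R both differed by -0.20, against a list median of -0.06. As the mean of probe sets EPOR differed by 0.05, IL9R differed by -0.016 and the list median was 0.014, so the direction of EPOR and of the median turned. GHR was dim, at 3.62 and 3.97 in the knockdown arrays, against 2.90 and 2.93 in the non-silencing arrays. For IL2RA the difference was 1.19 within number 1 and 0.07 within number 2.

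For STAT4, IL12RB2, a chain of the interleukin-12 receptor, lay between 3.53 and 3.75 on all 4 arrays and differed by 0.12, and IL23R differed by -0.18. For STAT6 the 4 measured chains had a median of -0.05, and 0 of 4 had groups apart, beside 12.4% of all genes higher and 15.0% lower. IL4R, the interleukin-4 receptor, read 9.02 and 9.09 in the knockdown arrays, against 9.19 and 8.98 in the non-silencing arrays. For STAT2 the interferon receptor chains IFNLR1 and IL10RB differed by 0.06 and -0.10. Their groups were apart, but each difference was smaller than its limma SE of 0.12, and IFNLR1 was at -0.09 as the mean of its probe sets.

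The kinases JAK1, JAK2, JAK3 and TYK2, which phosphorylate STAT proteins, all had overlapping groups, with differences of -0.04, 0.10, 0.21 and 0.08, and JAK1 was at 0.05 as the mean of its probe sets. Among 18 measured negative regulators, the knockdown arrays of 3 lay above both non-silencing arrays and those of 2 below both, beside 12.4% and 15.0% of all genes. SOCS2, a feedback inhibitor, read 11.8 and 11.7 in the knockdown arrays, against 11.4 and 11.5 in the non-silencing arrays, a difference of 0.29 (SE 0.13, limma adjusted p = 1.0). PTPN11, the phosphatase SHP2, differed by 0.23, and the 2 lower ones were PTPN1, the gene knocked down, and SOCS3. The feedback inhibitor SOCS3 differed by -0.07 by its brightest probe set and by 0.51 as the mean of its probe sets, so its direction depends on that choice. Of the nuclear partners, JUN differed by 0.33 and the histone acetyltransferase gene CREBBP by 0.23. IRF9, which binds DNA together with STAT2, was singled out after its values were seen: it read 7.20 and 6.22 in the knockdown arrays, against 6.14 and 6.32 in the non-silencing arrays, so that it too was high on knockdown array 1 only.

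Targets of single STAT proteins were counted for each factor, without the STAT genes themselves, and a target may answer to several factors. Over all genes 48.2% of differences lay above 0. Of 16 measured STAT3 targets 11 lay above 0, with a median of 0.15 that was 0.20 within number 1 and 0.004 within number 2. In number 1, 13 of the 16 were above 0, and in number 2, 9 of the 16, beside medians over all genes of 0.001 and -0.009. The share of all genes above 0 within each number was not counted. Groups of the STAT3 targets were apart for 3 higher and 3 lower in knockdown, beside 12.4% and 15.0% of all genes. BCL6, which encodes a transcriptional repressor active in germinal centre B cells, stood high in both numbers (0.74 and 0.68), unlike STAT3. CEBPD, dim with a non-silencing mean of 3.52, differed by 0.27, and CCND1 and PRDM1 differed by -1.05 and -0.22. CCND1 read 4.56 and 4.35 in the knockdown arrays, against 6.39 and 4.63 in the non-silencing arrays.

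The 15 STAT5 targets had a median of 0.02, with 8 above 0. Their groups were apart for 3 higher and 3 lower in knockdown, beside 12.4% and 15.0% of all genes. The 10 STAT4 targets had a median of 0.06, with 6 above 0, and IFNG, the cytokine gene that STAT4 is known to induce, read 4.04 and 4.03 in the knockdown arrays, against 3.99 and 4.11 in the non-silencing arrays, all below the median of all values. The 14 STAT6 targets had a median of 0.01, with 7 above and 7 below 0. Among them the chemokine gene CCL17 differed by 0.97 and MRC1 by 0.28, while GATA3 and CCL22 differed by -0.44 and -0.14. MRC1 was dim, with a non-silencing mean of 3.48. The 24 targets of ISGF3, an interferon-activated complex that holds STAT2 and IRF9, had a median of 0.01, with 15 above 0. Of these IFI44 and IRF7 differed by 0.66 and 0.34, and the antiviral genes MX1 and MX2 by -0.21 and -0.22. IFI44, IRF7 and MX1 had non-silencing means of 3.77, 5.03 and 4.52, below the median of all values. No target passed the limma test after adjustment over all genes.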

How the data were processed

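Transcripts of KM-H2 cells were read on 4 Affymetrix arrays (2 PTPN1 knockdown, 2 non-silencing), after 2-cycle amplification per the labels' protocols. The submitters' processing notes name RMA, so the deposited table holds log2 signal per probe set from the authors' own summary. RMA normalizes arrays by quantiles, hides any change in total RNA and compresses differences among dim probe sets. Software version is not given in the sources used here. Total signal carries no read depth, and the number of arrays limits the precision.

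Probe sets were named from the platform annotation, with symbols taken by gene identifier from RefSeq (GRCh38.p14). Of 54675 probe sets, 41097 had 1 symbol, 1801 several and 11777 none, and only the first kind was named. For each gene the brightest probe set on average over the 4 arrays was used, and all STAT probe sets were also kept. STAT genes other than those listed are not analysed here. The difference, knockdown minus non-silencing, was fitted with limma 3.58.1 (R 4.3.3, lmFit and eBayes, no covariates, two-sided), on all genes and on all probe sets, with Benjamini-Hochberg adjustment over the whole table and a threshold of 0.05. The fit was also run on simulated arrays with known changes, to check that it returned them. Noise there was independent between arrays, with no deviation shared by same-numbered arrays, so that run cannot vouch for the calls on these data.

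Genes of the lists were named where groups did not overlap, up to 2 with the largest difference in each direction, with all JAK genes; neighbours and the 5 genes nearest in pattern were named by rule, and other names were chosen after values were seen. The members and lists were chosen with earlier results of these data known. Alternatives were renormalization, centring, other probe set choices, a filter on dim genes, other variance models, a replicate block and leaving out each array. Promoter sequences are from RefSeq.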

Additional observations from a re-analysis of the deposited data

How the results depend on the processing

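The number of genes past the limma threshold was 0, and it was 1 with an intensity trend, 72 with the replicate number as a block, and 0 to 1 without 1 array, while it stayed 0 under the other alternatives tried. The number of probe sets past it was 0, and it was 164 with the replicate block and 0 to 1 without 1 array. The labels tie a replicate number to no shared batch, and the deviations of same-numbered arrays from their group means correlated at 0.648 across genes. Under the block PTPN1, the gene knocked down, passed (limma adjusted p = 0.0251, against 0.769 without it), and no STAT gene did: the limma adjusted p was 0.0919 for STAT4, 0.419 for STAT3, 0.449 for STAT5A, 0.374 for STAT5B and 0.715 for STAT6. Without 1 array the STAT5A difference ranged from -0.020 to 0.72 and the STAT6 difference from -0.36 to 0.067, so that both changed sign, STAT5A without knockdown array 1 and STAT6 without non-silencing array 1. As gene values, STAT3, STAT4 and STAT5B kept their sign under every alternative tried. Some of their single probe sets did not. Without 1 array the lowest differences were -0.02 for 208992_s_at and -0.21 for 243213_at of STAT3. For STAT5B they were -0.09 for 1555086_at and -0.02 for 1555088_x_at. With the mean of all probe sets the baseline percentile was 70.4 for STAT3 (71.8 by the brightest), 88.2 for STAT5A (77.7), 69.0 for STAT5B (75) and 80.4 for STAT6 (89.8). For STAT4 it was 30.7 (25.5). STAT4 and STAT5A have 1 probe set each, so their own signals are the same under both choices. Their percentiles moved only because the values of other genes changed. The median over the lists was 0.014, 0.044 with the mean of all probe sets, and -0.025 to 0.034 without 1 array. What moved this list median was not tested. The precision is limited by 2 arrays in each group, and the dim signals of STAT4 and 243213_at lie where RMA separates levels poorly.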

Other observations

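STAT3 was 1 of 14 genes, of 19775, whose signal on knockdown array 1 exceeded all 3 other arrays by at least 1 on the log2 scale. The same count was 29 for knockdown array 2, 4 for non-silencing array 1 and 18 for non-silencing array 2. Among the 14 were the cytokine genes IL21 and IL6, whose receptors are known to signal through STAT3, and which were named after their values were seen. Among their receptor chains, IL6R was dim with a non-silencing mean of 4.49, while IL6ST and IL21R had means of 9.33 and 9.84. A link between these cytokines and the STAT3 signal was not tested. IL21 read 7.61 and 5.06 in the knockdown arrays, against 4.80 and 4.63 in the non-silencing arrays. IL6 read 9.11 and 6.97 in the knockdown arrays, against 6.65 and 6.71 in the non-silencing arrays. CFB, which encodes complement factor B, read 8.93 and 7.70 in the knockdown arrays, against 6.96 and 7.04 in the non-silencing arrays. The membrane repair gene MYOF read 9.57 and 7.51 in the knockdown arrays, against 7.03 and 7.51 in the non-silencing arrays. IL12B and SERPINA6 were also among the 14, but there knockdown array 2 lay above both non-silencing arrays by at least 1 as well. The others were NAPSB, TPRG1, COL15A1, LGI1, HEBP2, LIPG and GRHL1.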
